A study of Homo sapiens with 12 samples.

Results

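The kinase module described here consists of MAP3K4, the kinase that GADD45 proteins bind, and the p38 and JNK kinases below it. Its members are every array probe whose gene symbol is one of 10 genes: MAP3K4, the MAP kinase kinases MAP2K3, MAP2K4, MAP2K6 and MAP2K7, the JNKs MAPK8 and MAPK9, the p38 kinases MAPK11 and MAPK14, and the p38 target kinase MAPKAPK2. This gave 19 of 47323 probes, for 8 of the 10 genes and of 20046 genes with a probe. MAP2K7 and MAPK14 had no probe in the probe-to-gene table used and were not analysed here.

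RNA came from HEK293T cells, an established human embryonic kidney line that carries the SV40 large T antigen, 48 h after transient transfection with X-tremeGENE 9. Cells received expression plasmids for human GADD45a alone (GADD45a), GADD45a with full-length human ING1b (GADD45a+ING1b), GADD45a with ING1b lacking its PHD domain (GADD45a+ING1bΔPHD), ING1b alone (ING1b), the truncated protein alone (ING1bΔPHD) or empty vector (Control). Each of the 6 groups had 2 independently transfected samples, so 12 Illumina bead arrays were analysed. The PHD domain of ING1b binds histone H3 methylated at lysine 4, and the design asks what GADD45a does with and without ING1b and with and without that domain. The cells were pools in which transfected and untransfected cells were measured together. A message that falls in few cells and one that falls a little in all cells therefore cannot be told apart.

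GADD45A, GADD45B and GADD45G proteins bind the N-terminal part of MAP3K4 and release its kinase domain. MAP3K4 then phosphorylates MAP2K3 and MAP2K6, which activate p38, and MAP2K4 and MAP2K7, which activate JNK. Control at these steps is by protein binding and phosphorylation, whereas the arrays measured messages only.

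The labels were checked first. At the GADD45A probe ILMN_1694075 the signal went against them: it was detected on 0 of the 6 arrays labelled GADD45a and on 6 of the 6 other arrays, and was at least 12.7-fold lower on the labelled arrays (limma adjusted p = 2.23e-06). The second GADD45A probe, ILMN_2052208, differed by -0.39 on the log2 scale (SE 0.10, limma adjusted p = 0.0914, 0.0465 with the replicate number as a block). Whether either probe lies in the part of the message that the plasmid carries was not analysed here, so neither checks the transfection, and the samples are called by their labels throughout. Of 4 ING1 probes 1 was detected, ILMN_1662243, and it did not pass in the comparisons with Control. The widest of its differences from Control was 0.49, in GADD45a+ING1bΔPHD (SE 0.18, 95% interval 0.09 to 0.90, limma adjusted p = 0.244). Whether this probe lies in the part of the message that the plasmids carry was not analysed here either, so it does not check the transfection. The arrays detected 14555 to 16301 probes each. KRT18, CDH2 and VIM, of 7 genes listed for HEK293 and embryonic kidney, were detected on all 12 arrays, as were the neuronal genes NEFL, NEFM and INA that HEK293 cells are known to express. PAX2, PAX8 and LHX1 of the first list were detected on 0 arrays, as were the probes of 3 blood cell and 2 endothelial genes. Of 4 fibroblast genes COL1A1 was detected on 9 arrays and the other 3 on 0.

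MAP3K4 stands at the top of the module. Because GADD45a has been linked to removal of DNA methylation at CpG-rich promoters, the 250 bases before its annotated start are shown with each CpG in capitals. They lie at chr6:160991519-160991768 on the plus strand of GRCh38.p14 and are taken from RefSeq.

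MAP3K4: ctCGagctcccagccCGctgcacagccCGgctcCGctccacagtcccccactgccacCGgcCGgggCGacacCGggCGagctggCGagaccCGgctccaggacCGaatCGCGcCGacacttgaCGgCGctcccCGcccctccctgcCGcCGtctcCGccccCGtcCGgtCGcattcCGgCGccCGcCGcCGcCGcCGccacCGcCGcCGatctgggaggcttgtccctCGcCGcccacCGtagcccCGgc

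This window held 38 CpG, more than 96.7% of the 35114 promoters in the same table, which had a median of 11. The 13 promoters listed for 9 members held 3 to 38, with a median of 22. MAPK8 and MAP2K7 also had 38, and the first of 3 MAPK9 promoters 37. DNA methylation was not measured in these samples.

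The MAP3K4 message was read by ILMN_1678087, which was detected on all 12 arrays, while its second probe, ILMN_1800171, was detected on 0. Normalized log2 intensities were 9.34 and 9.01 in GADD45a, 9.20 and 9.16 in GADD45a+ING1b and 9.04 and 9.01 in GADD45a+ING1bΔPHD, against 9.16 and 8.96 in ING1b, 9.19 and 9.23 in ING1bΔPHD and 9.33 and 9.19 in Control. The 6 arrays labelled GADD45a overlapped the other 6, and the first GADD45a array was the highest of all 12. The pooled difference between them was -0.05 (SE 0.09, 95% interval -0.26 to 0.16, limma adjusted p = 0.846).

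MAP2K3, a p38-activating kinase kinase, had 6 probes, of which ILMN_1790534 was detected on all 12 arrays, ILMN_1801175 on 3 and the other 4 on 0. At ILMN_1790534 the values were 8.19 and 8.30 in GADD45a, 8.45 and 8.77 in GADD45a+ING1b and 8.78 and 8.54 in GADD45a+ING1bΔPHD, against 8.45 and 8.92 in ING1b, 8.79 and 8.99 in ING1bΔPHD and 8.72 and 8.13 in Control. Both ING1bΔPHD arrays exceeded every Control and every GADD45a array, and the 2 Control arrays lay far apart. Its difference between ING1bΔPHD and Control, 0.46 (SE 0.24, 95% interval -0.06 to 0.99), did not pass (limma adjusted p = 0.515). Without Control replicate 1, the higher Control array at 8.72, the difference was 0.76. Both ING1bΔPHD arrays lay closer to that array than to the second Control array, at 8.13, so the size depends on which Control array is kept. ILMN_1801175 was seen only on the first arrays of GADD45a+ING1b, GADD45a+ING1bΔPHD and ING1bΔPHD, at 6.18, 6.03 and 6.30.

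MAP2K4, which phosphorylates JNK and can also act on p38, was read by 2 probes that were detected on all 12 arrays. At ILMN_2100689 the values were 8.50 and 8.31 in GADD45a, 8.03 and 7.97 in GADD45a+ING1b and 8.58 and 8.29 in GADD45a+ING1bΔPHD, against 8.26 and 8.14 in ING1b, 8.64 and 8.19 in ING1bΔPHD and 8.56 and 8.32 in Control. The 2 GADD45a+ING1b arrays were the lowest of the 12, with the ING1b arrays next in order of group means. GADD45a+ING1b differed from Control by -0.43 (SE 0.19, 95% interval -0.86 to -0.0049), which had an unadjusted limma p of 0.0479 but did not pass over all probes (limma adjusted p = 0.281, 0.0858 with the replicate block). The arrays with full-length ING1b differed from those with ING1bΔPHD by -0.33 (SE 0.14, 95% interval -0.63 to -0.02, limma adjusted p = 0.385), also with an unadjusted p under 0.05.

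The other MAP2K4 probe, ILMN_2100693, gave 7.52 and 6.43 in GADD45a, 7.36 and 6.26 in GADD45a+ING1b and 7.21 and 6.81 in GADD45a+ING1bΔPHD, against 6.99 and 6.53 in ING1b, 7.52 and 7.15 in ING1bΔPHD and 7.32 and 6.59 in Control. Replicate 1 was the higher array in all 6 groups, and each group labelled GADD45a overlapped all the others. The difference between GADD45a+ING1b and Control at this probe was -0.14 (SE 0.44, 95% interval -1.12 to 0.83), an interval that also covers the value at the first probe. MAP2K6, the other p38-activating kinase kinase, had 1 probe, which was detected on the first Control array alone and was not tested.

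The JNKs were read by 3 detected probes. MAPK8, or JNK1, gave 7.46 and 6.95 in GADD45a, 7.14 and 6.97 in GADD45a+ING1b and 7.30 and 7.02 in GADD45a+ING1bΔPHD at ILMN_1849941, against 7.31 and 6.97 in ING1b, 7.36 and 6.79 in ING1bΔPHD and 7.13 and 6.98 in Control. All 6 groups overlapped, with replicate 1 higher in each of them. Its second probe, ILMN_2308806, was detected on 0 arrays. The pooled MAPK8 difference was 0.05 (SE 0.14, 95% interval -0.26 to 0.36, limma adjusted p = 0.911).

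MAPK9, or JNK2, gave 10.23 and 10.13 in GADD45a, 10.48 and 10.43 in GADD45a+ING1b and 10.51 and 10.38 in GADD45a+ING1bΔPHD at ILMN_2400292, against 10.13 and 10.19 in ING1b, 10.16 and 10.35 in ING1bΔPHD and 10.20 and 10.22 in Control. The 4 arrays of the combined transfections were the highest of the 12, and the 2 arrays with GADD45a alone lay among the rest. GADD45a+ING1b exceeded GADD45a by 0.27 (SE 0.14, 95% interval -0.05 to 0.59, limma adjusted p = 0.670) and Control by 0.24 (SE 0.14, 95% interval -0.07 to 0.56, limma adjusted p = 0.415). GADD45a+ING1bΔPHD exceeded GADD45a by 0.26 (limma adjusted p = 0.999) and Control by 0.23 (limma adjusted p = 0.474), so neither pair passed.

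The second MAPK9 probe, ILMN_2400297, gave 6.82 and 7.49 in GADD45a, 7.54 and 7.56 in GADD45a+ING1b and 7.31 and 7.59 in GADD45a+ING1bΔPHD, against 6.97 and 7.55 in ING1b, 7.76 and 7.08 in ING1bΔPHD and 6.87 and 7.61 in Control. The 2 arrays of a group lay far apart in GADD45a, ING1b, ING1bΔPHD and Control, less so in GADD45a+ING1bΔPHD and close together in GADD45a+ING1b. GADD45a+ING1b and GADD45a+ING1bΔPHD exceeded GADD45a by 0.39 and 0.30 and Control by 0.31 and 0.21 (SE 0.33 each). These differences had the same sign as at the first probe but did not pass, and the order of groups was not resolved. AFTPH, VPS26B and CHGA had the values most like those of ILMN_2400292 over the 12 arrays, with Pearson r of 0.869, 0.846 and 0.83 as a description. CHGA was detected on 3 of the 12 arrays.

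The p38 kinase MAPK11 was near the limit of the arrays. ILMN_1735361 was detected on the first ING1b array, at 5.95, and on the second GADD45a+ING1bΔPHD array, at 5.96, and its other probe on 0. MAPKAPK2, which p38 phosphorylates and which in turn acts on mRNA-binding proteins, gave 8.42 and 8.47 in GADD45a, 8.67 and 8.54 in GADD45a+ING1b and 8.61 and 8.67 in GADD45a+ING1bΔPHD at ILMN_1774844, against 8.31 and 8.61 in ING1b, 8.38 and 8.80 in ING1bΔPHD and 8.56 and 8.37 in Control. The highest and the lowest array both came from groups not labelled GADD45a, and the other MAPKAPK2 probe was detected on 0. The pooled difference was 0.06 (SE 0.11, 95% interval -0.18 to 0.29, limma adjusted p = 0.840).

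**Figure D1:**
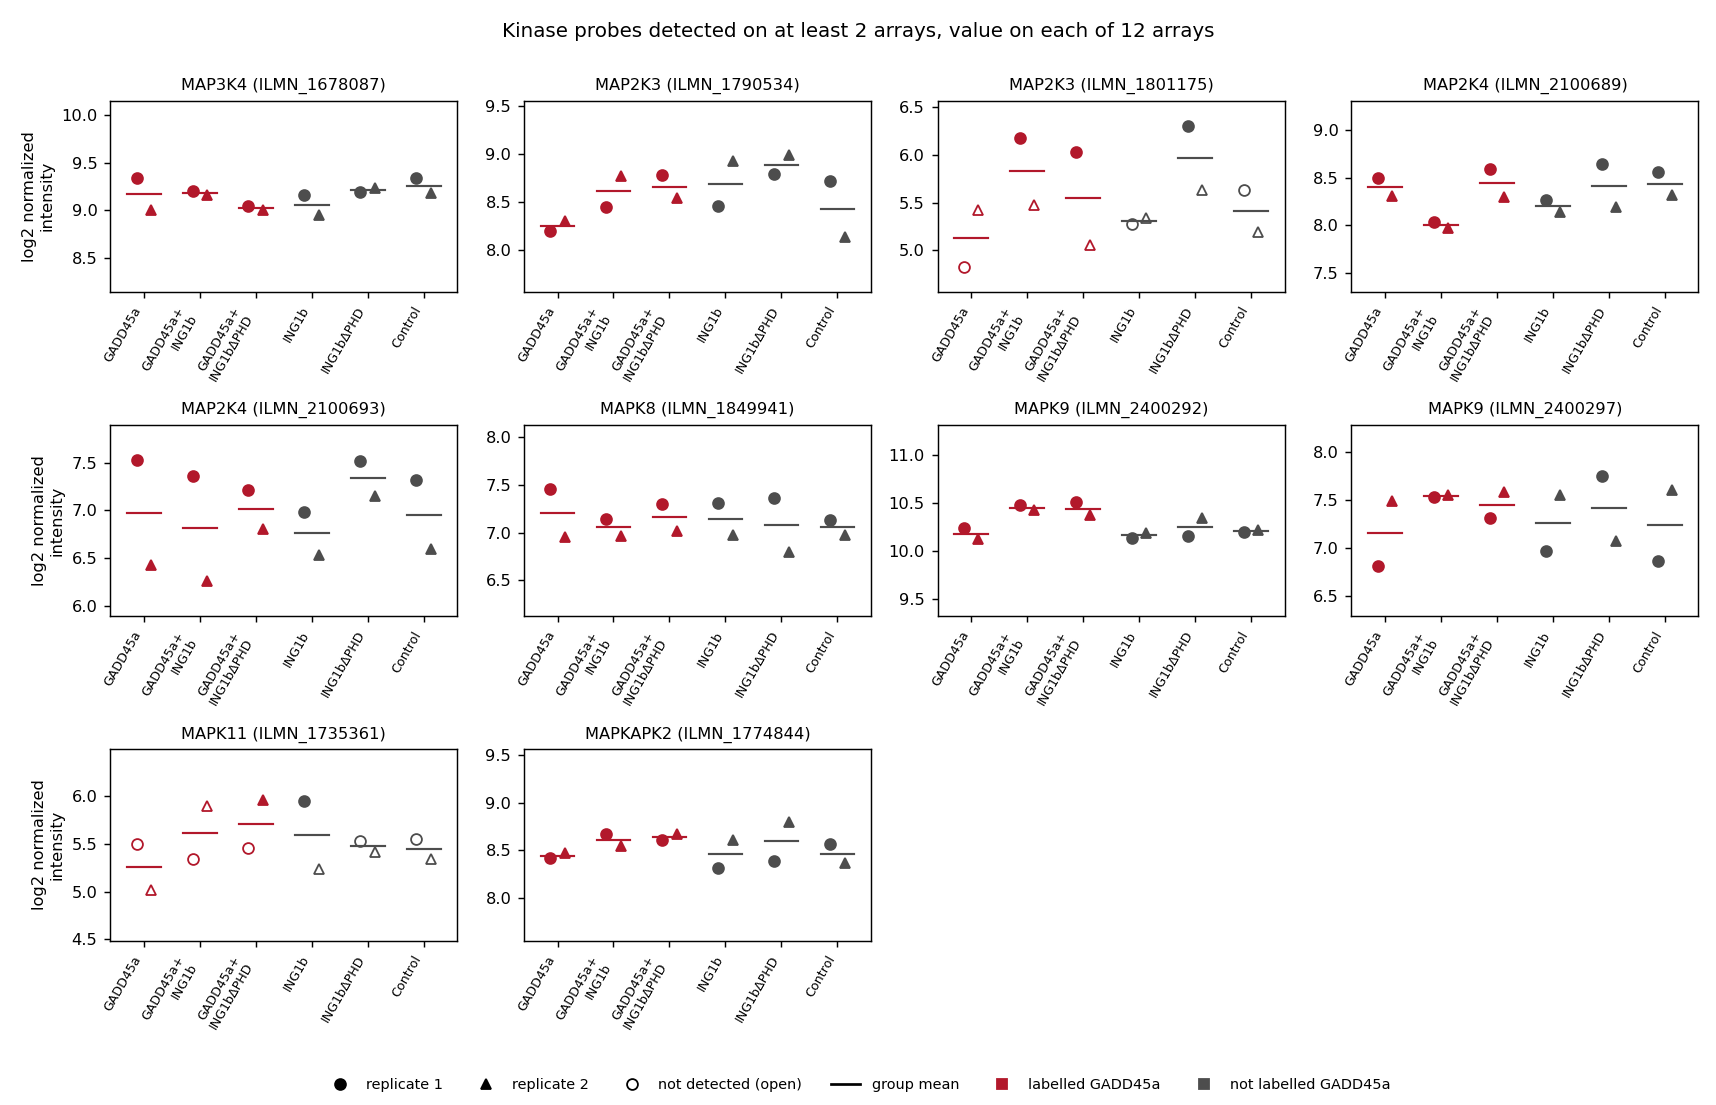
Normalized log2 intensity (vertical axes, each spanning at least 2 log2 units) of the 10 kinase probes detected on at least 2 arrays, by group. Each point is 1 array, open where not detected, bars are group means of 2 arrays, and red marks groups labelled GADD45a, whose arrays overlap those of the other groups in every panel.

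Across the module, 10 probes from 7 genes were detected on at least 2 arrays and tested. In the comparison of the 6 arrays labelled GADD45a with the other 6, limma called 0 of these 10 at an adjusted p under 0.05, where 1.63% of all 17814 tested probes were called. The count was 0 with the replicate block too, where 5.13% of all probes were called, and 0 kinase probes had an unadjusted p under 0.05, where 16.6% of all probes did. In no kinase probe were the 6 and 6 arrays separate, as was so for 1.98% of all probes. The differences lay between -0.16 and 0.15, with 5 above and 5 below 0 and a median of -0.01, beside a median of -0.0034 over all probes. Of all probes 42% differed by more than the kinase probe with the widest difference, MAP2K3 ILMN_1790534. The median size of the difference was 0.07 for the kinase probes and 0.13 for all. The 95% intervals of the 8 probes detected on all arrays reached from -0.65 to 0.51, so changes within that span were not resolved at every probe.

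**Figure D2:**
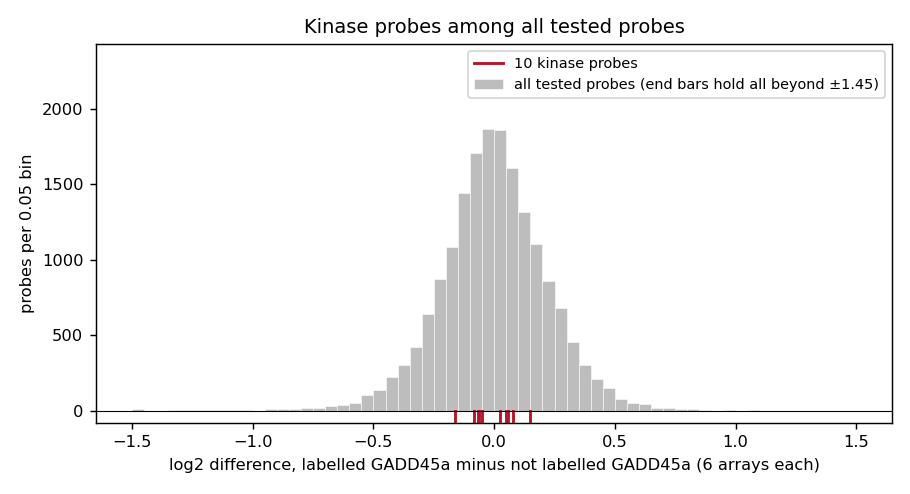
Number of tested probes (vertical axis, in bins 0.05 wide) by their log2 difference between the 6 arrays labelled GADD45a and the other 6 (horizontal axis). The red ticks under the axis are the 10 kinase probes, which lie between -0.16 and 0.15.

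Against Control, 0 of the 10 probes passed in any of the 5 groups by limma. The share of all probes called was 0.5% in GADD45a, 1.83% in GADD45a+ING1b, 0.168% in GADD45a+ING1bΔPHD, 0.298% in ING1b and 0% in ING1bΔPHD. At an unadjusted limma p under 0.05 the kinase counts were 0 in GADD45a, 1 in GADD45a+ING1b (MAP2K4 ILMN_2100689), 0 in GADD45a+ING1bΔPHD, 0 in ING1b and 0 in ING1bΔPHD. The shares of all probes at that level were 14.3%, 17.4%, 15.4%, 9.03% and 10.5% in the same order. With the replicate block the kinase counts were again 0 in all 5 groups, where 2.26%, 5.91%, 2.48%, 0.539% and 0% of all probes passed, in the same order. Groups of 2 arrays often separate: in GADD45a 0 of the 10 did not overlap Control, where 42.6% of all probes did not. The counts were 2 in GADD45a+ING1b (45% of all probes), 3 in GADD45a+ING1bΔPHD (42.9%), 3 in ING1b (35.7%) and 1 in ING1bΔPHD (37.9%). The kinase medians were -0.06, 0.16 and 0.16 in the groups labelled GADD45a and -0.03 and 0.09 in ING1b and ING1bΔPHD, with medians over all probes between -0.02 and 0.0019. These 5 comparisons share the Control arrays.

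The kinase differences were widest between GADD45a+ING1b and GADD45a, with a median size of 0.32 beside 0.17 for all probes, the largest of the 13 comparisons. In GADD45a+ING1b against GADD45a, 6 of 10 probes had arrays that did not overlap, beside 38% of all probes: both MAP2K3 probes, MAP2K4 ILMN_2100689, both MAPK9 probes and MAPKAPK2. The widest difference, 0.70, was at MAP2K3 ILMN_1801175, which was detected on 1 of 2 GADD45a+ING1b arrays and 0 of 2 GADD45a arrays. Its separation thus lay near the detection limit, and it is included in the medians. Of the 6 probes, all but MAP2K4 were higher in GADD45a+ING1b. The kinase median was 0.22 beside -0.01 for all probes, and limma called 0 of the 10, where 0.337% of all probes were called. At an unadjusted limma p under 0.05 the count was also 0, where 8.54% of all probes were. In GADD45a+ING1bΔPHD against GADD45a 3 of 10 did not overlap (31.7% of all), with a median of 0.23, and 0 passed, as for 0% of all probes. With ING1b or ING1bΔPHD as the baseline, adding GADD45a gave 0 calls among the kinases beside 0.202% and 0.0786% of all probes. Full-length ING1b against ING1bΔPHD, 4 arrays each, gave 0 calls beside 0.831%, with 1 kinase probe (11.7% of all) at an unadjusted limma p under 0.05. The interactions of GADD45a with ING1b and with ING1bΔPHD gave 0 calls among the kinases and 0% among all probes. Over all 13 comparisons 2 of 130 kinase tests had an unadjusted limma p under 0.05, both at MAP2K4 ILMN_2100689. They came from GADD45a+ING1b against Control, where 17.4% of all probes were at that level, and from full-length ING1b against ING1bΔPHD, where 11.7% were. The share of all probes over the 13 comparisons together was not analysed here.

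At some kinase probes the 2 replicates differed in the same direction within every group. Replicate 2 minus replicate 1 was -0.69 (SE 0.12) at MAP2K4 ILMN_2100693 (limma adjusted p = 0.0105) and -0.34 (SE 0.08) at MAPK8 (limma adjusted p = 0.0300), with replicate 1 higher in 6 of 6 groups at both. At MAP2K4 ILMN_2100689 it was -0.23 (SE 0.08, limma adjusted p = 0.0784), with replicate 1 again higher in 6 of 6. This comparison was added after the data were seen. Of the 8 kinase probes detected on all 12 arrays 2 (25%) differed by replicate number, beside 15.9% of 12916 such probes in all. The median SD over the 12 arrays was 0.210 for the 8 kinase probes and 0.223 for all, and within groups it was 0.218 and 0.191.

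The rest of the pathway was read from 7 lists, with 80 genes of which 66 were tested. The lists were written from general knowledge, but with earlier results of these data known. Their counts are therefore descriptions and no test of the pathway. In the pooled comparison 4 of the 66 passed, at 4 of their 90 tested probes, where 1.63% of all tested probes passed. JUN, ATF3 and DUSP16 rose, and GADD45A, the transfected gene, was lower at ILMN_1694075. The other GADD45A probe, ILMN_2052208, did not pass in this model, and as said above neither probe checks the transfection. The shares of all probes called against Control, given above, apply to the list counts as well. Among the other p38, JNK and MAPK-activated kinases 0 of 8 passed in the pooled comparison or against Control, among the ERK pathway kinases 0 of 7 and among scaffolds and binding partners 0 of 8. With the replicate block, where 5.13% of all probes passed in the pooled comparison, 1 scaffold or partner passed there and in each of the 3 groups labelled GADD45a against Control (SPAG9), and 1 ERK pathway kinase passed there (MAPK7) and 1 in GADD45a+ING1b (MAP2K5). These genes, and MAP3K20 below, were named after their values were seen. Among the other upstream kinases 0 of 13 rose and 1 fell in these comparisons. This was MAP3K1, which acts above JNK, at 7.96 and 7.96 in GADD45a+ING1b and 8.81 and 8.83 in Control, a difference of -0.86 (SE 0.15, limma adjusted p = 0.0250). It passed in 16 of 22 alternatives. It was lost with only those groups in the model (limma adjusted p = 0.215) and without Control replicate 2 (0.135), either GADD45a+ING1b array (0.155 and 0.127) or either ING1b array (0.0501 each). With the replicate block 1 upstream kinase, MAP3K20, also passed in GADD45a against Control.

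JUN, the AP-1 subunit that JNK phosphorylates and whose gene AP-1 and ATF2 drive, was higher on every array labelled GADD45a. Its values at ILMN_1806023 were 12.66 and 12.61 in GADD45a, 12.16 and 12.25 in GADD45a+ING1b and 12.50 and 12.54 in GADD45a+ING1bΔPHD, against 11.57 and 11.84 in ING1b, 11.68 and 12.09 in ING1bΔPHD and 11.57 and 11.81 in Control. The lowest labelled array lay just above the second ING1bΔPHD array, and the groups did not overlap. The pooled difference was 0.69 (SE 0.10, limma adjusted p = 0.0119), and it passed in 22 of 22 alternatives. Against Control alone JUN differed by 0.95, 0.52 and 0.83 in GADD45a, GADD45a+ING1b and GADD45a+ING1bΔPHD, with limma adjusted p of 0.0620, 0.182 and 0.0927, and 0.0229, 0.0687 and 0.0328 with the replicate block.

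ATF3, a stress-induced bZIP factor, lies outside the 3 of smallest p in its list and is named after its values were seen. At ILMN_2374865 it gave 10.87 and 10.97 in GADD45a, 11.10 and 11.21 in GADD45a+ING1b and 10.90 and 11.18 in GADD45a+ING1bΔPHD, against 10.33 and 10.25 in ING1b, 9.98 and 10.45 in ING1bΔPHD and 9.96 and 10.77 in Control. The groups did not overlap, though the 2 Control arrays lay far apart. The pooled difference was 0.75 (SE 0.15, limma adjusted p = 0.0423), and it passed in 11 of 22 alternatives. The ATF3 call was lost without the detection filter (limma adjusted p = 0.0765) and on leaving out any single array outside Control.

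DUSP16, a phosphatase that acts on JNK and p38, was the 1 of 10 phosphatases that passed in the pooled comparison, and with the replicate block 3 did. Against Control 0 phosphatases passed, and with the block 1 did in GADD45a, 2 in GADD45a+ING1b and 1 in GADD45a+ING1bΔPHD. Its values at ILMN_1764361 were 7.86 and 7.64 in GADD45a, 6.95 and 7.31 in GADD45a+ING1b and 7.57 and 7.45 in GADD45a+ING1bΔPHD, against 6.68 and 6.39 in ING1b, 7.06 and 6.93 in ING1bΔPHD and 7.26 and 7.16 in Control. The first GADD45a+ING1b array lay among the arrays not labelled GADD45a, so the groups overlapped. The pooled difference was 0.55 (SE 0.10, limma adjusted p = 0.0339), and it passed in 10 of 22 alternatives. Its limma adjusted p was 0.0595 under median scaling and 0.0555 without the detection filter. It was lost without any single array other than Control replicate 1 and GADD45a+ING1b replicate 1, with up to 0.102 without ING1b replicate 2.

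**Figure D3:**
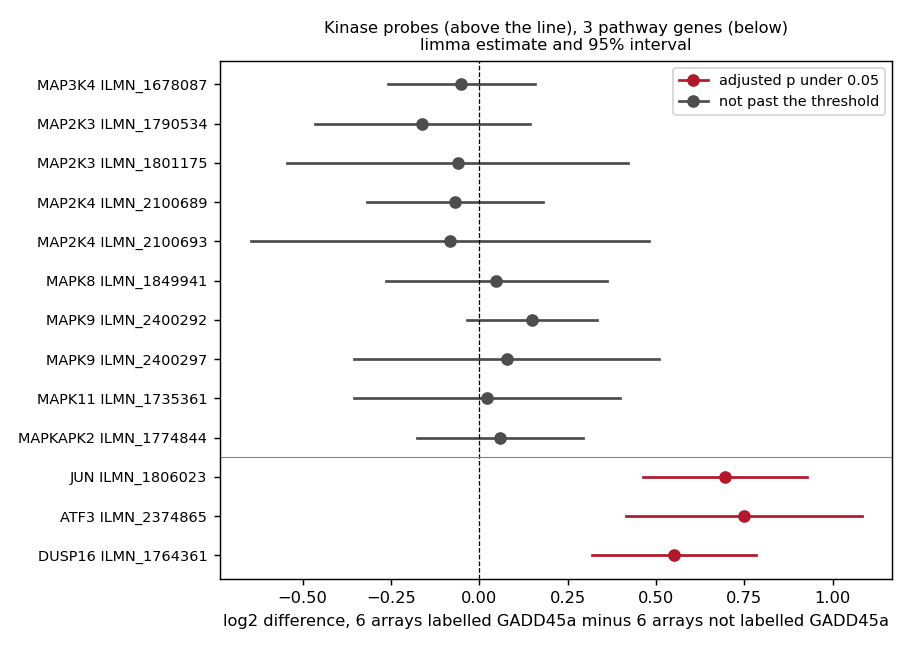
Difference in log2 intensity between the 6 arrays labelled GADD45a and the other 6 (horizontal axis) with limma's 95% interval, for the 10 kinase probes above the grey line and JUN, ATF3 and DUSP16 below it. All 10 kinase intervals include 0, and the 3 red ones, at 0.69, 0.75 and 0.55, passed at an adjusted p under 0.05.

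The promoters of JUN and ATF3 are shown because these were the genes of the lists that rose without overlap in the pooled comparison, with the AP-1 variant TGACATCA known from the JUN promoter in capitals. MAP2K3 is shown beside them as the only member whose listed promoters held the AP-1 letters TGACTCA, on the other strand TGAGTCA, in capitals. The windows are the 250 bases before the start in RefSeq on GRCh38.p14, at chr1:58784048-58784297 (minus strand), chr1:212565157-212565406 (plus) and chr17:21284461-21284710 (plus).
JUN: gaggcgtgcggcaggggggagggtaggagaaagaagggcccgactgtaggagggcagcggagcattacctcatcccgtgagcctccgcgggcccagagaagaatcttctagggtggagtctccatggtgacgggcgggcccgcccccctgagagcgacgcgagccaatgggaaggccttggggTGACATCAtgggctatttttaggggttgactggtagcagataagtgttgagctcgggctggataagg
ATF3: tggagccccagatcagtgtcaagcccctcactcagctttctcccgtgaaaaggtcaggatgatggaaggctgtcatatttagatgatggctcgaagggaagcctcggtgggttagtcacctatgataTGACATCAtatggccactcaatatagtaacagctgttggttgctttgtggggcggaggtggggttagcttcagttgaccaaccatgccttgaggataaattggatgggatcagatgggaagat
MAP2K3: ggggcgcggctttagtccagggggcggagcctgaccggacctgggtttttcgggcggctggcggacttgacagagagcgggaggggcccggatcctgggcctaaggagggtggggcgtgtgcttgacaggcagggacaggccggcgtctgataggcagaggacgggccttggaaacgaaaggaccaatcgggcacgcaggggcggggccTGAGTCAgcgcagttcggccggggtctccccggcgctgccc

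Both strands were searched, and the motifs do not overlap here. The variant was found in 2.38% of all 35114 promoters and in 0 of the 13 of the members, TGACTCA in 4.2% of all and in 1 of the 13, and the CRE letters TGACGTCA in 1.65% of all and in 0 of the 13. The second ATF3 promoter in the table held none of the 3 motifs. The motifs were chosen after the values were known, and a match describes letters in a window, not a bound site.

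In the presence of full-length ING1b, GADD45B was higher than with ING1bΔPHD by 1.76 (SE 0.12, limma adjusted p = 0.000151). FOSB was higher too (limma adjusted p = 0.000295), with no size given because 2 of the 4 arrays with ING1bΔPHD, both of GADD45a+ING1bΔPHD, did not detect it. GADD45B, a paralog that also binds MAP3K4, was 9.87 and 10.08 in GADD45a+ING1b and 9.09 and 9.44 in ING1b, against 7.05 and 7.25 in Control, while GADD45a alone gave 6.85 and 6.91. It rose by 2.82 (SE 0.17, limma adjusted p = 0.000104) and 2.11 (SE 0.17, limma adjusted p = 0.00161) in the first 2 groups. With the truncated protein GADD45B was 8.04 and 7.96 in ING1bΔPHD and 7.83 and 7.63 in GADD45a+ING1bΔPHD. These values also lay above both Control arrays, and neither group passed against Control. FOSB, an AP-1 partner of JUN, was 8.77 and 8.85 in GADD45a+ING1b and 7.66 and 7.73 in ING1b, against 5.64 and 6.24 in Control, where 1 of 2 arrays detected it, and it passed in both (limma adjusted p = 0.000494 and 0.0202). In ING1bΔPHD FOSB was detected on 2 of 2 arrays, at 6.61 and 6.34, also above both Control arrays, and did not pass. In ING1b the FOSB call was lost without Control replicate 1, ING1b replicate 1 or ING1b replicate 2. It was also lost with only ING1b and Control in the model (limma adjusted p = 0.115). Between GADD45a+ING1b and ING1b the differences of GADD45B and FOSB were 0.71 and 1.12 and did not pass (limma adjusted p = 0.271 and 0.180). ZFP36, the mRNA-binding protein that MAPKAPK2 phosphorylates, was 7.85 and 7.78 in GADD45a, 8.10 and 8.28 in GADD45a+ING1b, 7.82 and 7.91 in GADD45a+ING1bΔPHD, 8.00 and 7.84 in ING1b and 7.09 and 7.61 in ING1bΔPHD, against 7.23 and 7.15 in Control. All groups but ING1bΔPHD lay above both Control arrays. ZFP36 passed against Control in GADD45a+ING1b (difference 1.00, SE 0.19, limma adjusted p = 0.0326), and in 9 of 22 alternatives. Its limma adjusted p was 0.196 when only those groups were modelled, 0.0515 under median scaling and 0.0533 without the detection filter. ZFP36 was lost without any single array other than the ING1bΔPHD ones, with up to 0.169 without Control replicate 2. Among transcription factors and other substrates 2 of 17 thus rose in the pooled comparison, 2 in GADD45a+ING1b and 1 in ING1b, with 0 falling in any of these. With the replicate block the list had 4 passing genes in the pooled comparison, 4 in GADD45a+ING1b, 1 in GADD45a, 2 in GADD45a+ING1bΔPHD and 1 in ING1b.

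**Figure D4:**
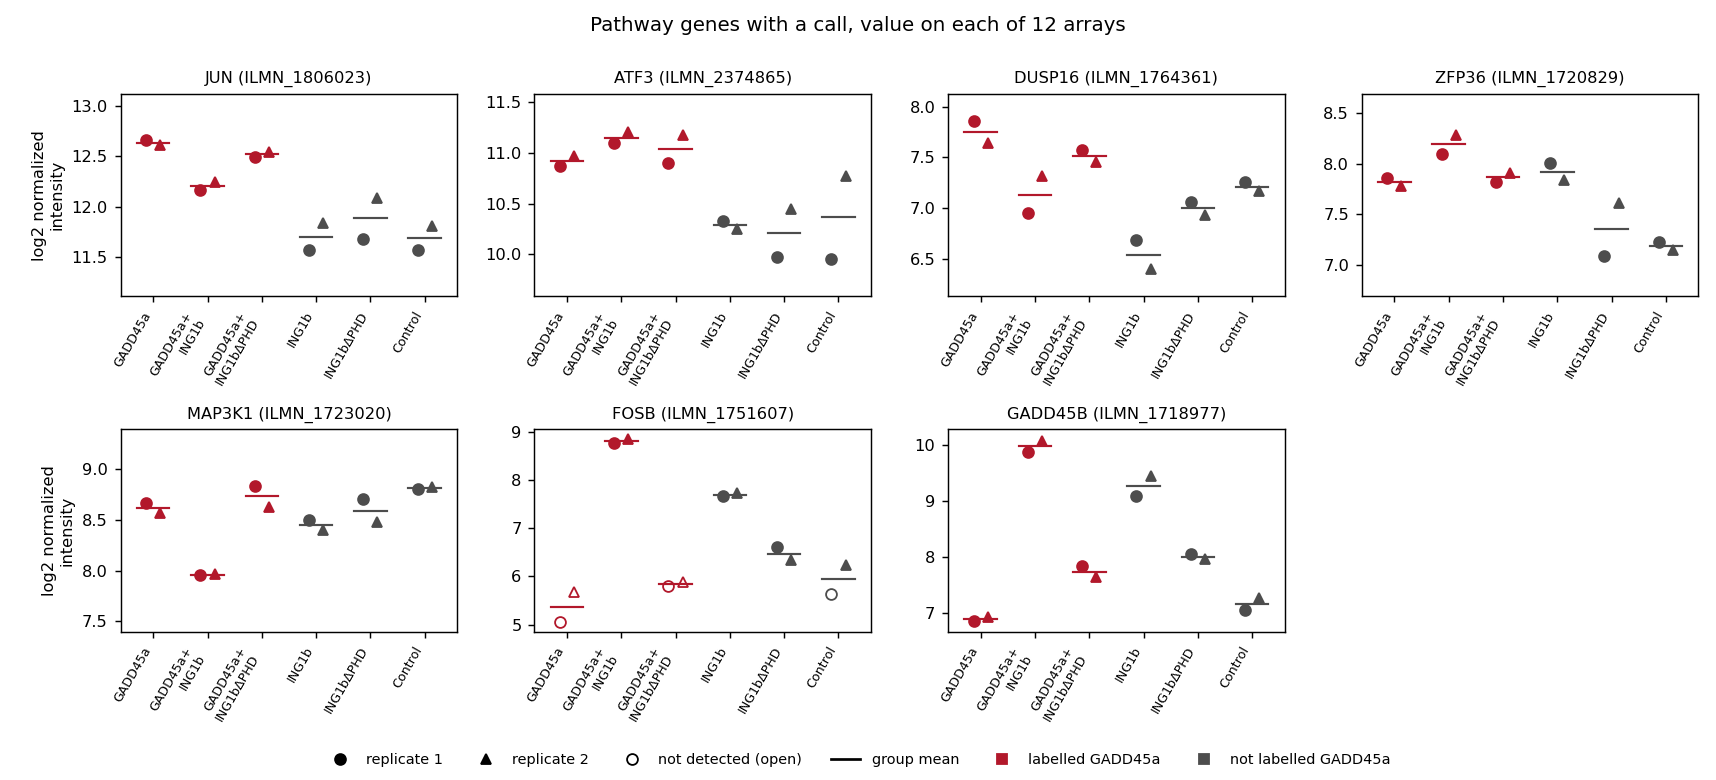
Normalized log2 intensity (vertical axes, each with its own range) of 7 pathway genes with a call, by group. Each point is 1 array, open where not detected, and bars are group means of 2 arrays: JUN and ATF3 are higher on every red array (labelled GADD45a), and GADD45B and FOSB are highest with full-length ING1b.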

How the data were processed

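Per the labels, total RNA was made into biotinylated cRNA for Illumina arrays, and per the submitters' processing notes GenomeStudio 2011.1 was used. The deposited scanner table gives for each probe and array an intensity, not normalized, and a detection p-value, with steps that fit 770 negative control beads. A second table deposited by the authors holds intensity values already normalized, some below 0, and served only as an alternative. The background options used upstream were not stated in these sources.

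Intensities were background-corrected with nec of limma 3.58.1 in R 4.3.3 (controls inferred from the detection p-values, offset 16), quantile-normalized and taken to log2. Each of the 17814 probes (of 47323) that reached a detection p below 0.01 on 2 or more arrays was tested singly. Of all probes 30113 had 1 gene symbol, 8 several and 17202 none, and 30074 matched RefSeq. One mean per group was fitted to 12 arrays with limma, and 13 comparisons were adjusted by Benjamini-Hochberg over all tested probes at 0.05. The number of arrays limits the precision, and levels of different probes are not compared.

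The members and lists were chosen with earlier results of these data known. Every kinase probe is described, GADD45A and ING1 are always named, and of each list at most the 3 passing genes of smallest p, with the 3 genes most like the leading kinase probe. Between groups, the replicate differences had correlations of 0.228 to 0.435 (15 pairs, each over 0.1), so results are also given with a replicate block where it changes a call or a count. The main model has no block, since the labels state no pairing. Alternatives changed the background correction, offset, scaling, source of values, filter, probe choice, variance model, replicate block and groups in the model, and left out each array. The procedure was tested on simulated data.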

Additional observations from a re-analysis of the deposited data

How the results depend on the processing

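The counts of kinase probes called, 0 in each of 13 comparisons, were recomputed under 22 alternatives and were 0 in all 286, the replicate block and the leaving out of each array included. The smallest kinase adjusted p under any alternative was 0.0545, at MAP2K4 ILMN_2100689 in GADD45a+ING1b against Control with median scaling (-0.75), where the median of all probes moved to -0.27, and with the replicate block it was 0.0858 at an unchanged -0.43. Median scaling moved the pooled median to -0.165 over all probes and to -0.144 over the kinases, so signs of small differences depend on the scaling. Calls over all probes moved more: 291 in the pooled comparison (116 higher and 175 lower), against 914 with the replicate block, 1639 with median scaling (92 higher and 1547 lower), 162 without a detection filter and 105 to 345 without single arrays. Of 276 values recomputed for named pathway genes 48 no longer passed and 0 reversed. JUN passed in all 22. Adjusted p-values without single arrays reached 0.117 for ATF3, 0.102 for DUSP16, 0.155 for MAP3K1, 0.169 for ZFP36 and 0.173 for FOSB in ING1b. With only the groups compared GADD45B and FOSB in ING1b had limma adjusted p of 0.0589 and 0.115, and GADD45A in GADD45a+ING1bΔPHD had 0.0998. In the same setting MAP3K1 and ZFP36 in GADD45a+ING1b had 0.215 and 0.196. Fits without 1 array take the spread of the remaining array from the other groups. Members without a detected probe, and changes within the intervals given, were not resolved on 2 arrays a group.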
